A study of Bos taurus with 4 samples.

Results

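The genes examined here take up, make, bind and store fat in muscle, and they were compared between 2 cattle breeds, Limousin beef bulls (LIM) and Holstein-Friesian dairy bulls (HF). Of 10 genes chosen by name (FABP3, FABP4, ADIPOQ, PPARG, SCD, FASN, LPL, PLIN2, DGAT1 and CD36), 7 had a probe whose RefSeq accession matched the symbol, out of 7788 genes matched on the array. ADIPOQ, FASN and CD36 were not matched and were not analysed here. RNA of the semitendinosus, a muscle of the hind leg, from a LIM bull (Cy5, the red dye) and an HF bull (Cy3, the green dye) was hybridised together on each of 4 two-colour microarrays; all animals were 15 months old at slaughter. By the study's methods the muscle was trimmed of connective and adipose tissue before freezing, so the RNA is that of trimmed muscle with the fat cells that remained in it. The labels number the arrays as 4 biological replicates. All arrays lay on 1 slide and no pair of bulls was repeated with the dyes exchanged, so a breed effect and a dye effect cannot be told apart. Ratios are LIM over HF (Cy5 over Cy3), on the log2 scale, and follow the dye labels.

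Fat reaches muscle as triglyceride in lipoproteins. LPL, lipoprotein lipase, frees the fatty acids at the capillary wall, and small binding proteins carry them inside the cell: FABP3 in heart and muscle fibres, FABP4 in adipocytes, macrophages and capillary endothelium. Fatty acids that are not burnt are stored as triglyceride, whose last step of synthesis DGAT1 catalyses, in lipid droplets coated by perilipins such as PLIN2. SCD, stearoyl-CoA desaturase, makes monounsaturated from saturated fatty acids, and PPARG is the transcription factor that drives adipocyte differentiation. In cattle, adipocytes between the muscle fibres form marbling, while fibres hold droplets of their own.

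None of the 7 lipid genes passed the test between the breeds. The 4 pairs of bulls gave ratios of opposite sign for FABP4, FABP3, LPL, SCD and PPARG, most widely spread for FABP4, FABP3 and LPL. The ratio of each probe was tested against 0 with limma over 15856 probes, of which 5.47% had an adjusted p under 0.05 (2.96% higher and 2.51% lower in LIM); among the 7 genes the count was 0. An unadjusted p under 0.05 was reached by 3 of 7 (PLIN2, DGAT1 and SCD), against 27.3% of all probes. The study's text gives directions for FST, SIRT1, MSTN, SMAD2, HSPA8, GSK3B and TGFB2, and reports the same directions by qPCR. It also reports less myostatin protein (the product of MSTN) in LIM than in HF by Western blot. Neither of those measurements used the array dyes. For the genes just named, the ratios in these files ran the opposite way in 7 of 7. Whether the dye labels were exchanged was not tested. If the dye labels were exchanged, every sign, rank and direction given here would turn. Mean log2 ratios lay above 0 for 6 of 7 genes, with LPL among them at only 0.0013. The median of the 7 was 0.39, beside a median of 0.018 and quartiles of -0.12 and 0.15 over all probes kept. The sign was the same on all 4 arrays for 2 of 7 (PLIN2 and DGAT1), against 36.8% of all probes. Both dyes gave a signal well above background for each of the 7 genes on every array, as they did for all 6 measured genes of skeletal muscle identity, none of which passed (median -0.077; MYBPC1, a myosin-binding protein, had -0.39 ± 0.07 and TCAP, a sarcomere protein, -0.23 ± 0.08). In whole muscle, fewer cells of a type and less RNA per cell cannot be told apart.

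**Figure D1:**
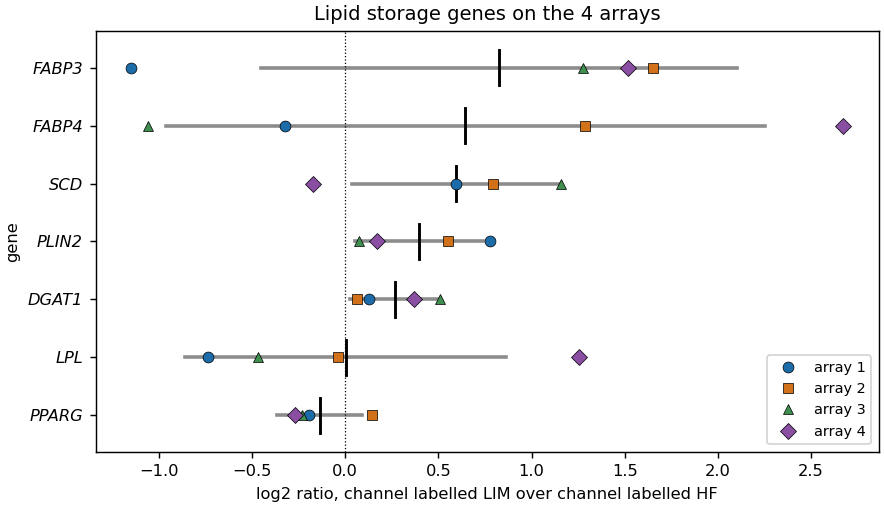
Log2 ratio of LIM over HF (horizontal axis) for the 7 measured lipid genes. Symbols are the 4 arrays, black ticks the means and grey bars the 95% confidence intervals from limma; FABP3 has the highest mean at 0.82 and PPARG the lowest at -0.14, and FABP4 runs from -1.06 to 2.67.

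Among the adipocyte markers, FABP4 had log2 ratios of -0.32, 1.29, -1.06 and 2.67 on arrays 1 to 4. The LIM bull thus had 6.37-fold more signal than its HF partner on array 4 and 2.09-fold less on array 3. These folds depended on the background correction: the log2 ratios of arrays 3 and 4 were -1.46 and 3.30 with an offset of 0, and -1.53 and 3.50 with processed signals. Arrays 2 and 4 were high and arrays 1 and 3 low. The mean was 0.64 ± 0.63 (moderated SE, n = 4; limma adjusted p = 0.564), with a 95% interval from -0.96 to 2.25, that is, from 1.95-fold lower to 4.76-fold higher. The SD between arrays was 1.67, larger than for 99.9% of the probes kept, whose median SD was 0.19. Without array 4 the mean of FABP4 was -0.032.

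The raw brightness shows the same spread. The FABP4 spots read 327.75, 493, 211.75 and 1710.5 in the LIM channel of arrays 1 to 4, over a local background of 35.75 to 39.5, and 202.5, 71.5, 157.5 and 86 in the HF channel, over 25.5 to 30.75. After normalization the log2 intensities were 8.01, 8.52, 7.23 and 10.07 for LIM and 8.33, 7.24, 8.29 and 7.40 for HF. A single LIM bull, that of array 4, was the highest, and the HF bulls of arrays 1 and 3 were above those of arrays 2 and 4; the breeds overlapped. The LIM values spanned 7.20-fold and the HF values 2.14-fold. Duplicate spots of the FABP4 probe differed by at most 0.14 in log2 ratio on any array, a measure of spot noise within a hybridisation only.

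The transcription factor PPARG varied little. Its log2 ratios were -0.19, 0.14, -0.23 and -0.27, with a mean of -0.14 ± 0.09 (adjusted p = 0.388) and an interval from -0.37 to 0.092, that is, from 1.29-fold lower to 1.07-fold higher. Array 2 alone was above 0, and with median centring, used instead of loess, the mean was 0.090. Its SD of 0.19 stood at the 50.1th percentile of all probes kept. The median over FABP4 and PPARG was 0.25, with array medians of -0.26, 0.72, -0.65 and 1.20, and without array 4 it was -0.063; it described 2 genes whose spreads differed widely.

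**Figure D2:**
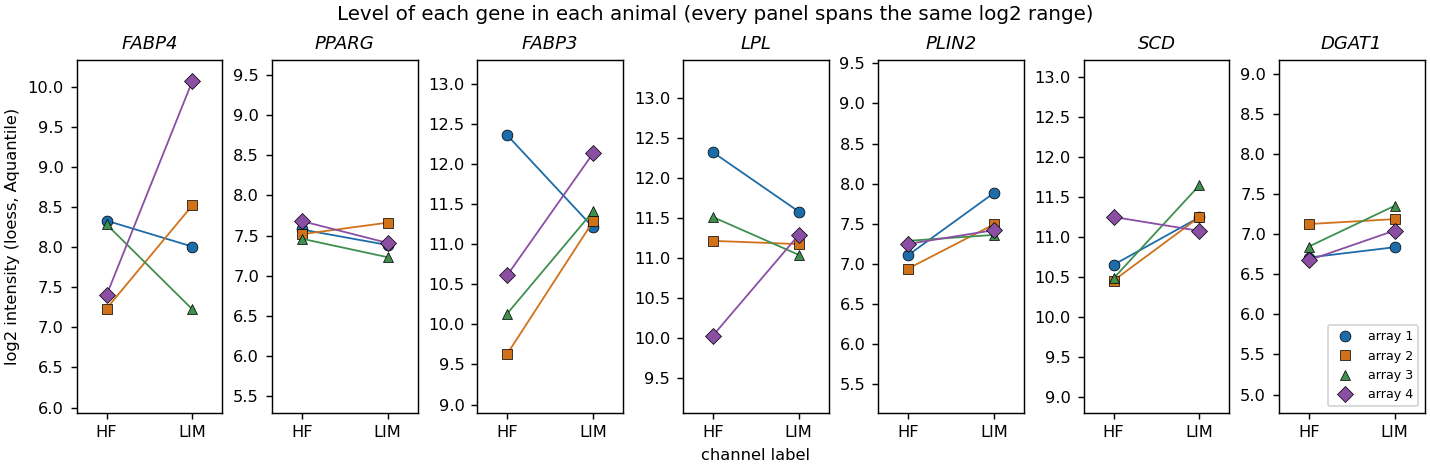
Log2 intensity of the 7 genes (vertical axis, after loess and Aquantile normalization) in the HF and the LIM bull of each array, joined by a line; levels of different genes are not comparable. The LIM bull of array 4 stands highest for FABP4 at 10.07, the HF bull of array 1 for FABP3 at 12.36, and the LIM levels of PLIN2 lie above all its HF levels.

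Of the genes that supply the muscle fibre with fatty acids, FABP3 had the highest mean ratio of the 7 by the dye labels, and with the sign turned it would have the lowest (-0.82) and PPARG the highest (0.14). Its log2 ratios were -1.15, 1.65, 1.27 and 1.52. On arrays 2 to 4 the LIM bull had 2.42-fold to 3.14-fold more signal, and on array 1 it had 2.22-fold less. The mean was 0.82 ± 0.50 (adjusted p = 0.356), with an interval from -0.45 to 2.10. Without array 1 it was 1.48 ± 0.10 (adjusted p = 0.0533 in limma), the highest mean of all alternatives, of which the lowest was 0.55. Array 1 was singled out here by its opposite sign in these same ratios, so this value is a description. With array 1 left out, 0 of all probes kept passed.

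The reversal of FABP3 lay in the HF channel. Its log2 intensities were 12.36, 9.63, 10.14 and 10.61 in the HF bulls of arrays 1 to 4 and 11.21, 11.29, 11.41 and 12.13 in the LIM bulls. The HF values spanned 6.62-fold against 1.90-fold for LIM, and the HF bull of array 1 exceeded all 4 LIM bulls. That animal also stood apart in genes of slow oxidative fibres, which burn fatty acids. The median ratio of 9 slow-fibre genes was -1.89 on array 1, against -0.48, -0.93 and -0.011 on arrays 2 to 4, and their summed intensity was 900164 in the HF bull of array 1, against 416061 to 643468 in the other HF bulls and 388643 to 511411 in the LIM bulls. The part of fibre type in the FABP3 ratios was not tested.

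LPL showed no mean difference and a wide spread. The log2 ratios of this lipase were -0.74, -0.041, -0.47 and 1.26, so that array 4 was high and the other arrays at or below 0. The mean was 0.0013 ± 0.34 (adjusted p = 0.998), with an interval from -0.86 to 0.86, which covers a change of up to 1.81-fold in either direction. As for FABP3, the spread lay in the HF channel: log2 intensities of the HF bulls were 12.32, 11.22, 11.51 and 10.03, a 4.89-fold span, and those of the LIM bulls 11.58, 11.18, 11.04 and 11.29, a 1.45-fold span. The HF bull of array 1 was the highest of all 8 animals, as for FABP3, and the HF bull of array 4 the lowest. The mean turned to -0.42 without array 4.

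PLIN2, which coats lipid droplets in many cell types, was the 1 of 7 genes whose channel levels did not overlap between the breeds, against 16.9% of all probes. Its log2 ratios were 0.78, 0.55, 0.074 and 0.17, above 0 on all 4 arrays, which also held for 21.2% of all probes. The log2 intensities were 7.88, 7.49, 7.36 and 7.42 in LIM and 7.11, 6.94, 7.29 and 7.25 in HF bulls. The gap was narrow, between 7.36 and 7.29, and duplicate spots differed by up to 0.17 in log2 ratio. The HF spots were dim, with readings of 59.5 to 82.25 over backgrounds of 29 to 30.25. On array 1 the log2 ratio was 1.37 with processed signals. Arrays 1 and 2 carried most of the difference. Channel levels lay entirely higher in LIM in 9.5% and entirely higher in HF in 7.35% of all probes. The mean was 0.39 ± 0.14 (unadjusted p = 0.0319 and adjusted p = 0.144 in limma), with an interval from 0.050 to 0.74. The median over FABP3, LPL and PLIN2 was 0.39, with array medians of -0.74, 0.55, 0.074 and 1.26, below 0 on array 1 alone.

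Among the enzymes, SCD had log2 ratios of 0.59, 0.79, 1.16 and -0.17. The LIM bulls of arrays 1 to 3 had 1.51-fold to 2.24-fold more signal than their partners, and array 4 was slightly below 0. The mean was 0.59 ± 0.22 (unadjusted p = 0.0410 and adjusted p = 0.165 in limma), with an interval from 0.035 to 1.15. A dimmer probe for SCD gave 0.36, 0.51, 0.91 and -0.29, the same order of the arrays, with a mean of 0.37 ± 0.20 (adjusted p = 0.291). Raw readings of the brighter probe were 3659, 3932, 6148 and 3730 in the LIM channel and 1090, 832, 675 and 1545 in the HF channel, before normalization. DGAT1 had log2 ratios of 0.13, 0.062, 0.51 and 0.37, above 0 on all 4 arrays. Its mean was 0.27 ± 0.10 (unadjusted p = 0.0368 and adjusted p = 0.156 in limma), with an interval from 0.024 to 0.51. The DGAT1 spots were dim, with LIM readings of 113 to 201.75 over backgrounds of 34.75 to 38.5 and HF readings of 49 to 72.75 over 29.25 to 31.75. Its mean was 0.57 ± 0.20 when computed from the signals as the scanner software had processed them, which carry no offset.

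The order of the mean ratios, from FABP3 at 0.82 over FABP4, SCD, PLIN2, DGAT1 and LPL to PPARG at -0.14, was not resolved. The 95% intervals of every neighbouring pair in this order overlapped. What set the genes apart, with the offset of 50, was the spread between pairs. The SD between arrays was 1.67 for FABP4, 1.32 for FABP3, 0.88 for LPL and 0.56 for SCD, against 0.33 for PLIN2, 0.21 for DGAT1 and 0.19 for PPARG. An SD above 1 was seen in 2 of the 7 genes and in 0.732% of all probes kept. Among probes of like brightness (mean log2 intensity within 0.5), FABP4 stood at the 99.9th percentile of the SD, FABP3 at the 99.4th and LPL at the 97.4th. SCD stood at percentile 92, PLIN2 at 83.3, DGAT1 at 72.3 and PPARG at 46.4. With processed signals, which carry no offset, the moderated SE of PLIN2 (0.25) was no smaller than that of SCD (0.24). It was 0.79 for FABP4, 0.50 for FABP3, 0.34 for LPL, 0.20 for DGAT1 and 0.17 for PPARG.

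**Figure D3:**
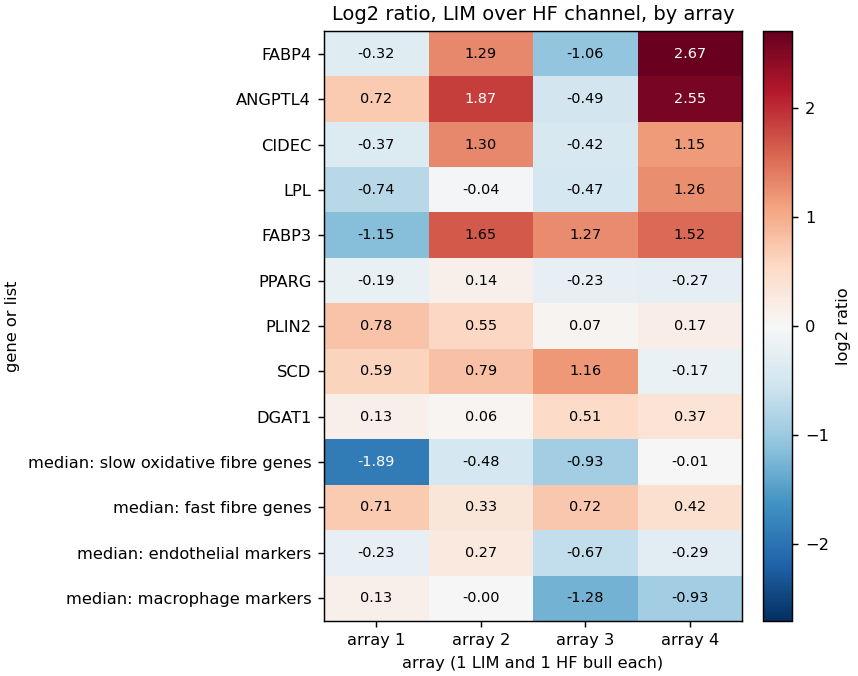
Log2 ratio of LIM over HF (colour and printed value) on each of the 4 arrays for the 7 lipid genes, for ANGPTL4 and CIDEC, and as the median of 4 lists of fibre type and cell type genes. FABP4, ANGPTL4 and CIDEC are highest on arrays 2 and 4, and FABP3 and the slow-fibre median are lowest on array 1.

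Of 6375 other measured genes, the 2 nearest to FABP4 in their 4 ratios were also genes of fat storage and handling; they were looked up after the spread of FABP4 had been seen. ANGPTL4, a secreted inhibitor of lipoprotein lipase that fatty acids induce, came first, with ratios of 0.72, 1.87, -0.49 and 2.55 (root mean square difference 0.66 over 4 arrays), on array 1 with the sign opposite to that of FABP4. CIDEC, a lipid droplet protein of adipocytes, came next, with -0.37, 1.298, -0.42 and 1.15 (0.82). The next genes, TST (0.91) and RAB12 (0.96), stood in none of the fat lists. In the HF channel ANGPTL4 read 9.69, 7.42, 9.71 and 7.76 on the log2 scale, with the bulls of arrays 1 and 3 above those of arrays 2 and 4 as for FABP4. Nearest to LPL was LDAF1, which encodes a lipid droplet assembly factor, with -0.70, -0.16, -0.031 and 0.90 (0.29). SLC52A2 (0.30) and RANGRF (0.31), like LDAF1 outside the fat lists, were almost as near. By the rule set for the highest and the lowest mean, the genes nearest to FABP3 were ALAS1 (0.72), KERA (0.73) and SPDEF (0.76), at distances like those of ANGPTL4 and CIDEC from FABP4, and those nearest to PPARG were SF1 (0.039), SRSF9 (0.041) and NOP53 (0.051), which like PPARG hardly differed between the channels.

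The order of arrays seen for FABP4, with arrays 2 and 4 both above arrays 1 and 3, was then counted in lists of other genes. It held in 16.6% of the 6369 other genes measured and in 21 of 74 genes (28.4%) of the 7 fat lists together. In the list of other adipocyte genes it held in 5 of 13, namely CIDEC, LIPE (hormone-sensitive lipase), PLIN1 (the perilipin of adipocytes), THRSP and TRARG1. It also held in 6 of 12 genes of triglyceride synthesis (AGPAT1, AGPAT2, AGPAT4, DGAT2, FITM2 and GPAM), in 4 of 10 of the droplet coat, in 2 of 6 of triglyceride breakdown, in 5 of 16 of fatty acid uptake and activation, in 2 of 13 regulators (15.4%) and in 1 of 12 of fatty acid synthesis and desaturation. Genes of slow fibres (7 of 9) and endothelial markers (6 of 9) had this order as well, while it held in 0 of 7 macrophage markers and 1 of 6 fast-fibre genes. The endothelial medians were -0.23, 0.27, -0.67 and -0.29 on arrays 1 to 4 and the macrophage medians 0.13, -0.00059, -1.28 and -0.93. Summed over 9 endothelial markers, the intensity was 2221 to 4654 in LIM and 3154 to 3765 in HF bulls, and all 9 were well above background with both dyes on every array. All 9 had a mean below 0 and none passed (median -0.21; ERG -0.35 ± 0.20, EMCN -0.28 ± 0.16). With median centring the endothelial median was 0.058. FABP4 is also expressed in these cell types, and their part in its ratios was not tested. The order was chosen from FABP4, so these counts are a description.

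The remaining genes of fat metabolism were described from 7 lists, which together held 74 genes measured besides the 7. Of these, 1 was higher, 2 were lower and 71 did not pass, a share of 4.05% called beside 5.93% of all measured genes (2.78% higher and 3.15% lower), and their median log2 ratio was 0.0092. Each of the 3 calls, like those among the fibre type and progenitor genes, was lost when any 1 array was left out (adjusted p from 0.0578 to 0.159 in limma). This was so for nearly every call: 0, 0, 51 and 0 of all 15856 probes were called without arrays 1, 2, 3 and 4.

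Of the other adipocyte genes 1 passed. CFD, which encodes adipsin, a complement protease secreted by adipocytes, was lower in LIM, with log2 ratios of -0.59, -0.89, -1.59 and -1.64 and a mean of -1.17 ± 0.20 (adjusted p = 0.0442). With median centring it was -0.57 ± 0.15 (adjusted p = 0.0412). The other 12 of 13 did not pass. CIDEA, another droplet protein, had 0.42 ± 0.12, LIPE 0.30 ± 0.10 and PLIN1 0.26 ± 0.07, and the list median was 0.081. With processed signals the list median was 0.28 and 3 of its 13 genes were called, while 1336 of all 15856 probes kept were called. PLIN1 was well above background in the HF channel on 3 of 4 arrays, and LEP, the leptin gene, in neither channel on more than 1 array. Of the 13 genes, 9 were well above background with both dyes on all arrays, and their summed intensity was 24576 to 29357 in LIM and 24975 to 34405 in HF bulls. CFD is also a complement gene expressed by macrophages, and all 7 macrophage markers had a mean below 0 (median -0.49), with CD74 at -0.71 ± 0.22 and CD14 at -0.49 ± 0.14, none past the test, and their summed intensity was 2681 to 4860 in LIM and 4071 to 11125 in HF bulls. The part of macrophages in the CFD ratio was not tested.

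In fatty acid synthesis and desaturation, ME1, the malic enzyme that supplies NADPH for making fatty acids, was higher in LIM, with ratios of 0.82, 0.78, 0.59 and 0.63 and a mean of 0.71 ± 0.07 (adjusted p = 0.0210). The 4 pairs were close to each other and the mean corresponded to 1.63-fold. The other 11 of 12 did not pass and the list median was 0.035. ACLY, which makes cytosolic acetyl-CoA, had 0.28 ± 0.08 and SREBF1, the transcription factor of lipogenic genes, 0.27 ± 0.09. Both were above 0 on all 4 arrays, as ME1 was and SCD was not.

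The coat and the turnover of lipid droplets showed 1 further call. PLIN3, a perilipin of many cell types, was lower, with ratios of -0.35, -0.75, -0.35 and -0.72 and a mean of -0.54 ± 0.10 (adjusted p = 0.0490), the opposite side from PLIN2. With median centring PLIN3 was at -0.072 and did not pass. PLIN5, the perilipin of oxidative tissues, had 0.056 ± 0.17, and the median of the 10 droplet genes was 0.088. None of 12 genes of triglyceride synthesis passed (median -0.11); GPAM, the mitochondrial enzyme of its first step, had -0.54 ± 0.16, AGPAT4 0.27 ± 0.08, and DGAT2, the other enzyme of the last step beside DGAT1, -0.27 ± 0.17. GPAT3 had -2.36 and -2.64 on arrays 1 and 2 but 0.47 and 0.013 on arrays 3 and 4. None of 6 genes of triglyceride breakdown passed (median 0.15); ABHD6 had -0.32 ± 0.06 (adjusted p = 0.0546) and G0S2, an inhibitor of adipose triglyceride lipase, 0.43 ± 0.11.

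None of 16 genes of fatty acid uptake and activation passed, and their median was 0.031. The values furthest from 0 were ANGPTL4 at 1.16 ± 0.51, VLDLR, a lipoprotein receptor, at 0.83 ± 0.19 (adjusted p = 0.0689), and SLC27A1, a fatty acid transport protein of muscle, at -1.16 ± 0.36 (adjusted p = 0.122). The log2 ratios of SLC27A1 were -1.76, -0.75, -0.034 and -2.12. None of 13 regulators passed (median -0.065), with SCAP, which escorts SREBP to its activation, at -0.35 ± 0.10. Of 6 markers of fibro-adipogenic progenitors, the cells from which muscle adipocytes arise, OSR1, a transcription factor, was lower (-1.28 ± 0.24, adjusted p = 0.0496; -0.80 with median centring, adjusted p = 0.0979) and DLK1 had 0.64 ± 0.14; the median was -0.25, and 0.35 with median centring. The lists of triglyceride synthesis and of regulators likewise turned above 0 then (0.26 and 0.36). Tested against 0 with median centring, 3800 of all 15856 probes kept were called, and the median of all probes kept was 0.25. In fatty acid uptake 4 of 16 genes were then called (median 0.49, with VLDLR at 1.49 and ANGPTL4 at 1.65 among them). The counts were 4 of 12 in fatty acid synthesis (0.46), 3 of 12 in triglyceride synthesis and 3 of 13 among the regulators. They were 2 of 6 in triglyceride breakdown (0.49), 2 of 13 among the other adipocyte genes (0.077) and 1 of 10 in the droplet coat (0.59). Whether any list exceeded the share or the shift of all probes was not tested.

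For fibre type, which sets how much fat a fibre burns, single genes passed the test. Of 9 slow-fibre genes 8 had a mean below 0. MB, the oxygen store myoglobin, was the 1 above 0 and was called higher (1.02 ± 0.15, adjusted p = 0.0325). MYL3, a slow myosin light chain, was lower (-0.74 ± 0.12, adjusted p = 0.0422), and the list median was -0.88. An unadjusted p under 0.05 in limma was reached by 6 of 9, against 27.3% of all probes. With median centring MYL3 was at -0.089 and did not pass. Of 6 fast-fibre genes 4 had a mean above 0, and the list median was 0.58. PVALB, a calcium buffer, was higher (1.90 ± 0.33, adjusted p = 0.0445), as was TNNC2, the fast troponin C (0.68 ± 0.12, adjusted p = 0.0453). The fast myosin heavy chain genes MYH1 (-0.044 ± 0.11) and MYH2 (-0.51 ± 0.31) lay below 0 and did not pass. With median centring the medians were -0.20 for slow and 1.31 for fast fibres.

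**Figure D4:**
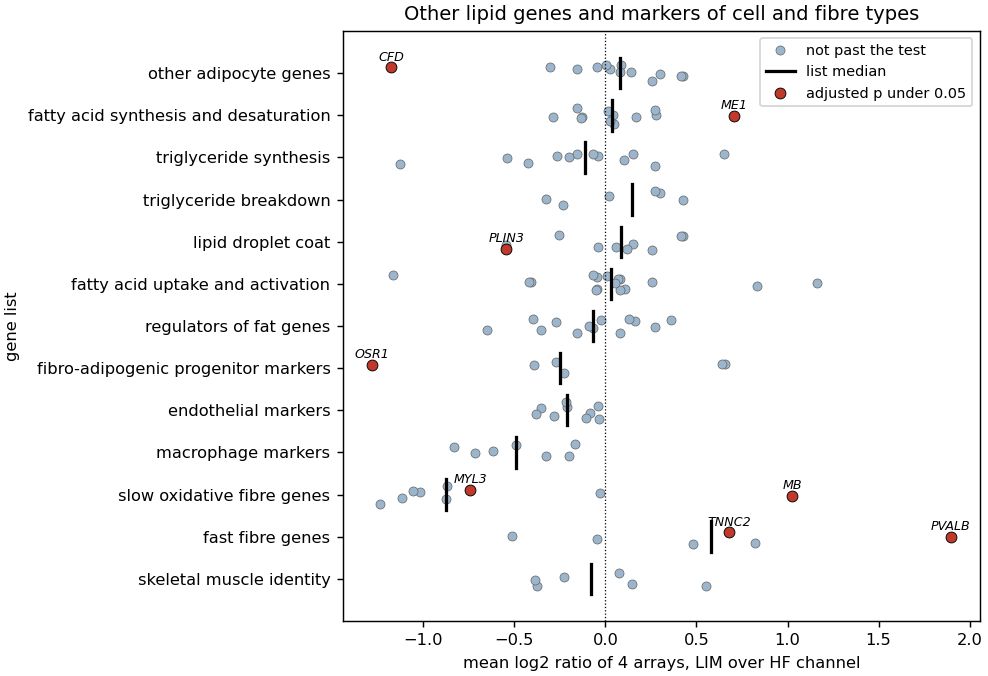
Mean log2 ratio of LIM over HF (horizontal axis) for each measured gene of 7 lists of fat metabolism and 6 lists of cell and fibre type genes; a gene may stand in several lists. Red points had an adjusted p under 0.05 in limma and black ticks are list medians; the medians of the 7 fat lists lie between -0.11 and 0.15.

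The values of the 7 genes depended on how the dyes were balanced. Median centring of the arrays instead of loess moved the median of all probes kept to 0.25 and the share of higher among called probes from 54.1% to 92.8%. With it, 3800 of the 15856 probes kept were called, 3525 of them as higher. Against 0, and not against the shift of the median, 2 of the 7 genes then passed as higher, PLIN2 (0.56 ± 0.13, adjusted p = 0.0293) and SCD (1.21 ± 0.29, adjusted p = 0.0340). Whether they exceeded the shift of all probes was not tested. FABP3 (1.42), FABP4 (1.00), LPL (0.62) and DGAT1 (0.34) moved up without passing.

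**Figure D5:**
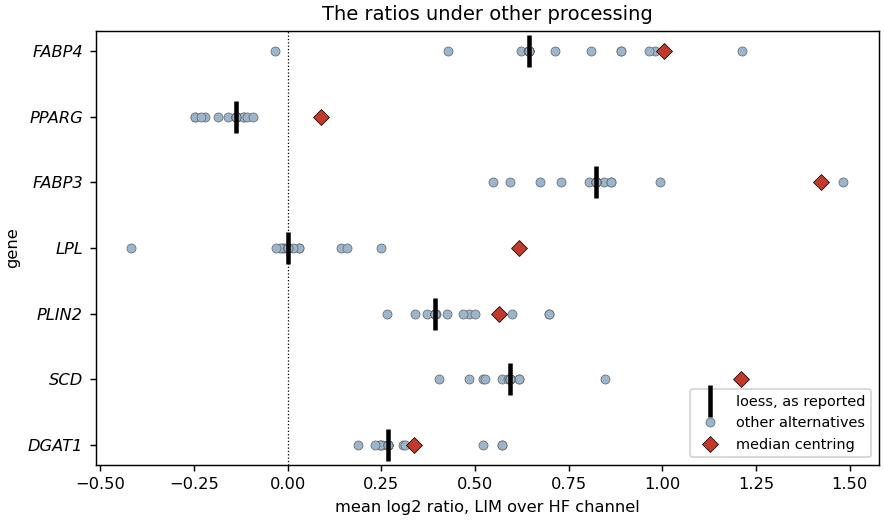
Mean log2 ratio of LIM over HF (horizontal axis) of each gene as reported, with median centring in place of loess, and under the other alternatives, which include leaving out each array. Median centring lies at or near the high end for SCD, FABP3 and LPL, and FABP4 falls to -0.032 only without array 4.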

How the data were processed

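Per the file headers the 4 two-colour arrays were read by the authors in Feature Extraction 10.7.3.1. The deposited intensity values are median spot and local background brightness per dye, not normalized, and processed signals, background-subtracted and dye-normalized by the software. The deposited log10 ratios are processed red (Cy5) over green (Cy3); the values of the series table were identical to them (largest difference 0, column medians 0, no further centring, red over green).

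Background was corrected with limma 3.58.1 in R 4.3.3 (normexp, offset 50), loess removed the intensity trend of each array's ratios (weight 0 for controls), and the 5 to 10 non-uniform spots of an array were dropped. Saturation did not occur. Replicate spots were averaged, and of 21475 probes the 15856 well above background on at least 3 arrays, each time in the same dye, were kept; each of the 7 genes passed in both channels on all 4. Well above background were 32513 to 33527 of 42990 spots in the LIM and 27102 to 28769 in the HF channel, so the red channel was the brighter. The number of arrays limits the precision.

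Mean log2 ratios were tested against 0, two-sided, with lmFit and eBayes and Benjamini-Hochberg adjustment over all probes kept. An exact sign-flip test cannot go below p = 0.125 with 4 arrays and was not used. On simulated data with the spread of these 15856 probes, 200 of them changed, 31% of 1.5-fold, 74.2% of 2-fold and 95.4% of 4-fold changes were recovered. These shares depend on how many probes change and are averages over probes whose median SD was 0.19. They do not hold for FABP4, FABP3 or LPL, whose SDs were 1.67, 1.32 and 0.88. P-values measure the spread between these 4 pairs. Between arrays, Pearson's r over probes, which are not independent replicates, was 0.40 to 0.60. Channel levels are after loess and Aquantile.

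Probes were named by accession through a RefSeq table of ARS-UCD2.0, for names only, since the array design refers to another build (8297 probes, 7788 symbols, 6376 genes kept). The brightest probe stood for a gene. The genes, the 13 lists and the tests were chosen with earlier results of these data known. Named besides the 7 genes are, per list, the genes past the test (up to 6) or else the 2 with the smallest p, and the 3 genes nearest to the members with the highest and lowest mean; other genes named in the text were chosen after their values were seen. Alternatives varied the background correction and its offset, the signal column (processed signals, series values), the normalization (median centring, centring on the kept probes, Aquantile, scale), the filter on dim probes (2 settings), population outliers, the model (trend with robust prior, array weights, the t-test of the methods, channels unpaired), the choice of probe for a gene, and the arrays included.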

Additional observations from a re-analysis of the deposited data

Results flagged for a closer look

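Dixon's ratio was computed over the 4 arrays for 38 named genes, and about 1.9 of them would pass its limit by chance. FABP3 was the 1 that did (0.865): its log2 ratio was -1.15 on array 1 and 1.27 to 1.65 on arrays 2 to 4.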

How the results depend on the processing

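Aquantile leaves ratios unchanged by construction and the series values repeat the processed signals, so 19 alternatives could differ. None of the 7 lipid genes passed in 18 of these, and with median centring 2 did. The number of called probes, 867, was 1336 with processed signals, 1339 with the series values, 3800 with median centring, 0 with an intensity trend and robust prior (4098 at an unadjusted p under 0.05), 1479 with the t-test of the methods at their thresholds and 1 after Benjamini-Hochberg, and 0 to 51 without 1 array (0, 0, 51 and 0 without arrays 1, 2, 3 and 4; 3184 to 3911 at an unadjusted p under 0.05). It was 1085 with no replicate block, that is, with the pairing on the array dropped, where again 0 of the 7 genes passed. FABP3, PLIN2, SCD and DGAT1 stayed above 0 in all 19 (0.55 to 1.48, 0.27 to 0.70, 0.40 to 1.21 and 0.19 to 0.57). LPL turned to -0.010 without background correction, -0.014 with an offset of 0, -0.019 with centring on the kept probes, -0.030 with scale normalization and -0.42 without array 4, and FABP4 to -0.032 without array 4. With median centring PPARG turned to 0.090, SCAP to 0.25, ERG to 0.024, EMCN to 0.026, MYBPC1 to 0.30, TCAP to 0.48, SF1 to 0.51, SRSF9 to 0.44 and NOP53 to 0.50. The cause of these changes was not tested. ME1 passed in 13, CFD in 12, OSR1 in 10 and PLIN3 in 9 of the 19 alternatives. Signal near background limits DGAT1, PPARG and PLIN2, and FABP4 in the HF channel of arrays 2 and 4.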
